A study of Rattus norvegicus with 11 samples.

Results

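Bone marrow mesenchymal stem cells (BMSCs) of the rat that had received medium of irradiated dendritic cells were set against control BMSCs, over all genes that reached 1 FPKM in 3 or more of the 8 libraries. FPKM are fragments per kilobase of transcript, scaled to the depth of the library, so levels can be compared between genes. By this rule 12329 of the 32883 genes in the deposited table were members, and 8 of the 11 libraries of the series were compared. The IRDC group (n = 4) held BMSCs given medium conditioned by irradiated dendritic cells and the control group (n = 4) held BMSCs without it, both at day 3 and both named as bone marrow mesenchymal stem cells with no genetic change given. The series text sets unirradiated (0 Gy) and irradiated (8 Gy) dendritic cell medium beside a control, but the library titles carry no dose, so that IRDC is the 8 Gy arm rests on its name. The remaining 3 libraries, labelled imDC, entered the fit only for its estimate of spread. Strain, sex and age of the animals, the number of animals, cultures and medium batches, and the medium of the controls are not given in the sources used here. What the irradiated cells released cannot be told apart from other differences between the media. The titles call the libraries biological replicates without saying whether they came from separate animals or cultures, so the p-values rest on a spread between libraries that could be technical.

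BMSCs grow attached in culture and can be turned into osteoblasts, adipocytes or chondrocytes. In marrow such stromal cells make matrix and growth factors for blood-forming cells. Dendritic cells are antigen-presenting cells whose medium can hold cytokines, chemokines and metabolites. In stromal cells, cytokine and Toll-like receptors act through the transcription factors NF-kB, STAT3 and C/EBP, low oxygen acts through hypoxia-inducible factors (HIFs), shortage of amino acids acts through ATF4, and sterol levels act through SREBP. Each of these routes has a known group of target genes, and the results are ordered by these groups.

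The libraries held 20.5 to 21.7 M recovered reads in IRDC and 21.2 to 25.5 M in control. Libraries of a group were close to each other, and the first principal component of the 8 libraries, with 92.4% of the variance, separated IRDC from control. The stromal markers fixed for the check of identity were present in both groups. Thy1 stood at 1060.4 FPKM in IRDC and 977 FPKM in control, and its small rise turned direction with quantile normalization. Cd44 stood at 148 FPKM in IRDC and 103 FPKM in control. Pdgfrb stood at 116 FPKM in IRDC and 187 FPKM in control. The check also asked that the leukocyte marker Ptprc (CD45), which stromal cells lack, be absent, and this part was not met. Ptprc was at 5.33, 5.15, 5.07 and 5.37 FPKM in IRDC libraries, against 17.01, 16.9, 18.4 and 18.0 FPKM in control libraries. The other marker that was to be absent, Pecam1, is not reported here. Of 61 markers of dendritic cells, macrophages and other leukocytes in the table, 33 passed the filter, and the summed level of the list was 870 to 880 FPKM in IRDC and 1319 to 1338 FPKM in control libraries. In the list Xcr1, Marco, Cd3e, Ms4a1, Nkg7, S100a9 and Hbb had no reads in the 8 libraries, and the dendritic cell gene Flt3 stood at 0.00791 FPKM in IRDC and 0.0297 FPKM in control. Other markers of dendritic cells and lymphocytes were present, such as Cd83 at 0.576 FPKM in IRDC and 5.72 FPKM in control and Cd8a at 14.2 FPKM in IRDC and 6.31 FPKM in control. Outside the list, and picked after their values were seen, the B cell genes Igh-6 and Blnk and the myeloid gene Clec4a were present in every control library. Igh-6 was at 0 to 0.184 FPKM in IRDC and 6.83 to 7.86 FPKM in control. Blnk was at 0.0749 to 0.460 FPKM in IRDC and 5.26 to 6.31 FPKM in control. Clec4a was at 0.199 to 0.411 FPKM in IRDC and 5.29 to 5.98 FPKM in control. Part of any change below may thus lie in cells other than BMSCs, and in such bulk samples fewer cells of a type and less RNA per cell cannot be told apart.

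The response was wide. With limma on log2(FPKM + 1) and a Benjamini-Hochberg adjusted p under 0.05, 9446 genes (76.6%) passed, 3036 of them higher in IRDC (24.6% of the genes tested) and 6410 lower (52.0%). The fold change on this scale, called log2 change below, understates the change of genes with low FPKM. At least 2-fold changes were seen for 1974 genes (16.0%), with 751 higher (6.09%) and 1223 lower (9.92%). At 8-fold and more the balance was the other way, with 110 genes higher and 85 lower, and at 16-fold 48 were higher and 27 lower. These classes depend on the 1 FPKM added, and the 8-fold and 16-fold counts were not repeated under other settings. For 8739 genes (70.9%) the IRDC and control libraries did not overlap. The median log2 change of all genes was -0.18. TMM-like scaling moved this median by 0.16 and quantile normalization by 0.15, and under these scalings 48.1% and 46.1% of the calls were higher in IRDC, against 32.1% with the authors' scaling. Small changes are therefore read relative to this shift, whereas none of the genes that turned direction under either scaling had changed at least 2-fold. Counts of list members below are read beside the shares of all genes that rose and fell.

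**Figure D1:**
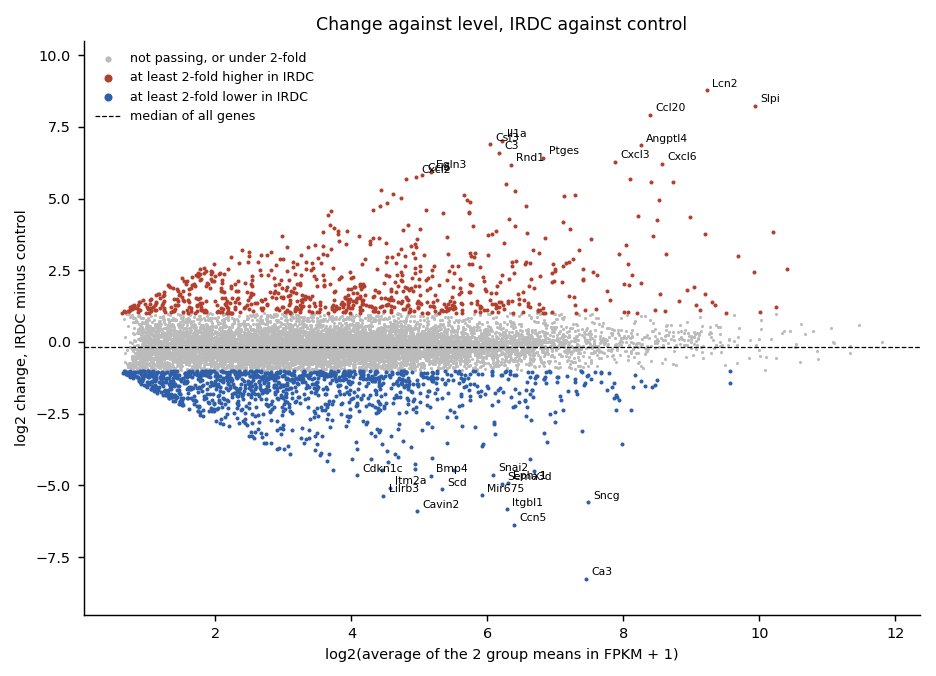
Log2 change (IRDC minus control, vertical) against the level of each of the 12329 genes (horizontal). Red points rose and blue points fell at least 2-fold, grey points are the others, and the dashed line is the median of all genes at -0.18. Lcn2 lies highest and Ca3 lowest.

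The genes that rose at least 2-fold made up 15.9% of all FPKM in each IRDC library, against 3.54% to 3.60% in the control libraries. The genes that fell at least 2-fold held 2.98% to 3.00% in IRDC, against 10.3% in control. In 21 genes every IRDC library exceeded 5 FPKM while every control library was under 0.5 FPKM, and in 37 genes the reverse held. Among genes with a control mean of 100 FPKM or more, 28 of 794 rose and 110 fell at least 2-fold.

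Promoter sequences of some genes that rose are shown first, because many of the strongly rising genes are known targets of NF-kB. Every gene shown holds a match to the kappaB consensus, so the set does not stand for all rising genes. Whether NF-kB acted on these genes was not tested. The sequences are the RefSeq bases upstream of the annotated start on build GRCr8, 5′ to 3′ toward the start. The capitals mark a match to the kappaB consensus on either strand. The Lcn2 stretch begins 250 bases upstream and ends short of the start, and its match begins 242 bases upstream. The other kappaB stretches run from 120 bases upstream to 1. The series was aligned to build rn6, so these coordinates are not those of the authors' table.

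Lcn2, chr3:36081911-36082030 on the minus strand: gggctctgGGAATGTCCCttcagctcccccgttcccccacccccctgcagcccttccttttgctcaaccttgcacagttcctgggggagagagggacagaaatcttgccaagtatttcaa
Cxcl1, chr14:17479322-17479441 on the minus strand: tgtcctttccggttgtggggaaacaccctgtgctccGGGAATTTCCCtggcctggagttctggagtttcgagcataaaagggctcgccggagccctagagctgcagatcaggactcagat
Cxcl2, chr14:17467256-17467375 on the minus strand: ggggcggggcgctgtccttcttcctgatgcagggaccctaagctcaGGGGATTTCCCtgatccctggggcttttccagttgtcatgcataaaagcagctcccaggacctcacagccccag
Cxcl6, chr14:17596418-17596537 on the minus strand: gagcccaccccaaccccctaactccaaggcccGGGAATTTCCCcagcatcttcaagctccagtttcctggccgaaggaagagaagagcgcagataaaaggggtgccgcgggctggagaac
Ccl20, chr9:91837039-91837158 on the plus strand: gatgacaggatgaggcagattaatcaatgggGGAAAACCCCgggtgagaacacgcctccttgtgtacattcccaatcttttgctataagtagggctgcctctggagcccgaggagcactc
Il6, chr4:5894576-5894695 on the minus strand: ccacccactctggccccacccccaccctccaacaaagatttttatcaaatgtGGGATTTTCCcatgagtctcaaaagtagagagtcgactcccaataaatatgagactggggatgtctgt
Nfkbia, chr6:78597073-78597192 on the minus strand: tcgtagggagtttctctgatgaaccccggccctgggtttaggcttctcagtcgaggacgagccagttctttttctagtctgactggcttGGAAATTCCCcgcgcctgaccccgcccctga

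Of the chemokine genes that rose, 9 had a promoter in the RefSeq table and 5 of these (55.6%) held a kappaB match in the 250 bases upstream. The NF-kB subunit and inhibitor genes that rose had a match in 6 of 14 (42.9%). In the cytokine list, to which Il6 belongs, 1 of 11 promoters of genes that rose (9.09%) had one, a share near that of all tested genes. Among the 20 genes with the largest increases it was found in 5 of 13 (38.5%) and among the 20 with the largest decreases in 1 of 14 (7.14%). The 5 were Lcn2, Ccl20, Cxcl2, Cxcl6 and Il6, all shown above. All but Lcn2 were already counted with the chemokine or cytokine genes, so these sets are not independent. The share with a kappaB match was 8.51% of the 8873 tested genes with a promoter and 6.41% of all 27457 promoters. The matches in Cxcl1, Cxcl2 and Cxcl6 are overlapping matches in 1 stretch, which began 84, 74 and 88 bases upstream of the start. These counts describe letters in a window and carry no test.

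Chemokine genes rose most as a group. Of 16 tested members 14 rose and 2 fell, of which 12 and 1 changed at least 2-fold, and the list's median log2 change was 2.79 above that of all genes. Cxcl6, a neutrophil-attracting chemokine, stood at 752, 764, 745 and 733 FPKM in IRDC libraries, against 9.32, 10.1, 8.83 and 8.40 FPKM in control libraries (log2 change 6.21, SE 0.044, adjusted p = 8.9e-18). Every IRDC library was far above every control library. Cxcl2, of the same family, was at 60.8, 59.6, 56.3 and 61.9 FPKM in IRDC libraries, against 0.0440, 0.249, 0.1096 and 0.0866 FPKM in control libraries. Cxcl1 was at 688 ± 15.9 FPKM in IRDC, against 34.9 ± 2.61 in control (log2 change 4.27, SE 0.042). Ccl2, which attracts monocytes, was the most abundant chemokine gene at 1462 ± 16.3 FPKM in IRDC, against 184 ± 3.32 in control (log2 change 2.99, SE 0.018). Ccl6 rose to 63.3 ± 1.83 FPKM in IRDC, against 0.135 ± 0.148 in control. Ccl20 rose by 7.93 on the log2 scale, and in the cytokine list Il6 rose by 5.57, and the promoters of both are among those shown. Cx3cl1, a membrane-bound chemokine, went against the list and fell to 0.248 ± 0.0856 FPKM in IRDC, against 7.90 ± 0.824 in control (log2 change -2.83, SE 0.088). Reads of the closely related Cxcl genes may be shared between copies by the authors' counting.

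Cytokine genes were mostly higher. Of 22 tested members 15 rose and 6 fell, of which 12 and 3 changed at least 2-fold. Lif, a cytokine of the IL-6 family that acts through gp130, was at 148, 152, 153 and 148 FPKM in IRDC libraries, against 2.12, 1.96, 2.80 and 2.50 FPKM in control libraries (log2 change 5.51, SE 0.064, adjusted p = 8.0e-16). No control library approached the IRDC level. Il1rn, which encodes the natural antagonist of the IL-1 receptor, rose to 262 ± 4.30 FPKM in IRDC, against 13.4 ± 0.951 in control (log2 change 4.19, SE 0.038). Its opponent Il1a was at 146 ± 5.32 FPKM in IRDC, against 0.135 ± 0.104 in control. Csf1, the growth factor of macrophages, fell to 68.4 ± 1.55 FPKM in IRDC, against 159 ± 2.99 in control (log2 change -1.21, SE 0.023). Tslp, an epithelial and stromal cytokine, fell to 1.45 ± 0.438 FPKM in IRDC, against 5.68 ± 0.510 in control.

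Receptors for cytokines were divided, with 17 of 35 tested members higher (48.6%) and 16 lower (45.7%), beside 24.6% and 52.0% of all genes. Il4r, the receptor chain shared by IL-4 and IL-13, had the largest increase and stood at 181, 179, 185 and 181 FPKM in IRDC libraries, against 5.77, 5.58, 6.40 and 5.84 FPKM in control libraries (log2 change 4.73, SE 0.034, adjusted p = 1.1e-17). Csf2rb, the beta chain of the receptors for IL-3 and GM-CSF, rose to 22.5 ± 1.24 FPKM in IRDC, against 1.5004 ± 0.171 in control. The IL-7 receptor gene Il7r rose to 16.0 ± 1.32 FPKM in IRDC, against 1.08 ± 0.281 in control. The oncostatin M receptor gene Osmr rose to 219.5 ± 4.09 FPKM in IRDC, against 51.4 ± 1.34 in control. The signal chain Il6st (gp130) rose by 0.40 on the log2 scale. Il1rl1, the receptor of IL-33, showed the opposite and stood at 7.24, 8.004, 7.44 and 8.27 FPKM in IRDC libraries, against 198, 199, 194 and 194 FPKM in control libraries (log2 change -4.50, SE 0.034, adjusted p = 1.4e-17). The groups did not overlap. The scavenging chemokine receptor gene Ackr4 fell to 20.1 ± 0.832 FPKM in IRDC, against 85.1 ± 1.52 in control.

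Among Toll-like and NOD receptors with their adaptors, 11 of 26 rose (42.3%) and 12 fell (46.2%), beside 24.6% and 52.0% of all genes. With TMM-like scaling 12 rose and 12 fell. Tlr2, which senses bacterial lipoproteins, rose to 51.5 ± 1.33 FPKM in IRDC, against 10.6 ± 0.492 in control (log2 change 2.18, SE 0.034). The inflammasome gene Nlrp3 rose to 22.8 ± 1.12 FPKM in IRDC, against 3.95 ± 0.485 in control. The lipopolysaccharide-binding protein gene Lbp rose to 339 ± 3.07 FPKM in IRDC, against 27.0 ± 0.979 in control. Of the sensors of viral RNA, Tlr7 rose and Ifih1 fell. Tlr3 fell to 3.97 ± 0.448 FPKM in IRDC, against 12.5 ± 0.599 in control, and Ddx58 (RIG-I) fell to 2.49 ± 0.428 FPKM in IRDC, against 9.02 ± 0.558 in control. The flagellin receptor gene Tlr5 fell to 0.0612 ± 0.0153 FPKM in IRDC, against 4.64 ± 0.154 in control. Tlr4 also fell (log2 change -0.64, SE 0.067). The kinase gene Irak3, an inhibitor of Toll-like receptor signals, rose (log2 change 1.66, SE 0.028).

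Among NF-kB subunits, inhibitors and cofactors more genes rose than fell. Of 26 tested members 16 rose and 3 fell, of which 9 and 0 changed at least 2-fold. Nfkbiz, a nuclear cofactor of NF-kB, was at 73.0, 78.3, 79.2 and 74.8 FPKM in IRDC libraries, against 11.2, 11.46, 11.6 and 10.7 FPKM in control libraries (log2 change 2.66, SE 0.041, adjusted p = 1.1e-14). Zc3h12a (Regnase-1), a nuclease that degrades cytokine mRNAs, rose to 42.7 ± 0.605 FPKM in IRDC, against 5.53 ± 0.346 in control. Nfkbia, the IkB-alpha inhibitor, rose to 29.5 ± 1.99 FPKM in IRDC, against 8.98 ± 0.778 in control. These genes are feedback targets of NF-kB. Tnip3, an inhibitor of the pathway, was at 7.85 ± 0.405 FPKM in IRDC, against 0.309 ± 0.0648 in control. The kinase gene Map3k8 was at 14.2 ± 0.470 FPKM in IRDC, against 1.51 ± 0.199 in control. The subunit gene Rela stood at 28.1 ± 1.13 FPKM in IRDC, against 27.2 ± 1.196 in control and did not pass (adjusted p = 0.34), though it passed with log2 changes of 0.22 and 0.16 under TMM-like scaling and quantile normalization. In the JAK-STAT list, Socs3, the feedback inhibitor of gp130 signals, was at 130.5, 138, 143 and 140.1 FPKM in IRDC libraries, against 10.54, 10.6, 13.6 and 11.8 FPKM in control libraries (log2 change 3.47, SE 0.064, adjusted p = 6.0e-14). The kinase gene Jak2 rose to 216 ± 5.66 FPKM in IRDC, against 38.5 ± 1.499 in control. Stat3 rose by 0.25 on the log2 scale. Socs2 fell to 0.624 ± 0.179 FPKM in IRDC, against 3.22 ± 0.584 in control.

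The list of acute phase, antimicrobial and metal-binding secreted proteins held the gene with the largest log2 change of all, Lcn2, which encodes a protein that captures bacterial iron carriers. Lcn2 was at 1179, 1203, 1203 and 1193 FPKM in IRDC libraries, against 1.86, 2.30, 1.19 and 1.72 FPKM in control libraries (log2 change 8.77, SE 0.089, adjusted p = 2.1e-16). Complement C3 was at 141, 141, 141 and 143 FPKM in IRDC libraries, against 0.763, 0.522, 0.189 and 0.456 FPKM in control libraries (log2 change 6.60, SE 0.088, adjusted p = 2.6e-15). Of 21 tested members 15 rose and 5 fell, of which 14 and 3 changed at least 2-fold. Ptx3, a soluble pattern recognition molecule, rose to 304 ± 3.19 FPKM in IRDC, against 7.85 ± 0.686 in control. The haem-binding protein gene Hpx rose to 96.9 ± 2.64 FPKM in IRDC, against 1.85 ± 0.329 in control. The metallothionein genes Mt1 and Mt2A, whose products bind zinc and copper, rose as well. Mt1 was at 103 ± 9.13 FPKM in IRDC, against 5.29 ± 0.743 in control, and Mt2A was at 639 ± 28.0 FPKM in IRDC, against 48.9 ± 1.79 in control. The zinc importer gene Slc39a14 rose to 295 ± 2.98 FPKM in IRDC, against 30.8 ± 1.02 in control. Pi16, of the CAP family of peptidase inhibitor-like proteins, fell to 2.31 ± 0.254 FPKM in IRDC, against 11.7 ± 0.362 in control. Its relative Pi15 fell to 0.0399 ± 0.0338 FPKM in IRDC, against 2.88 ± 0.656 in control.

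**Figure D2:**
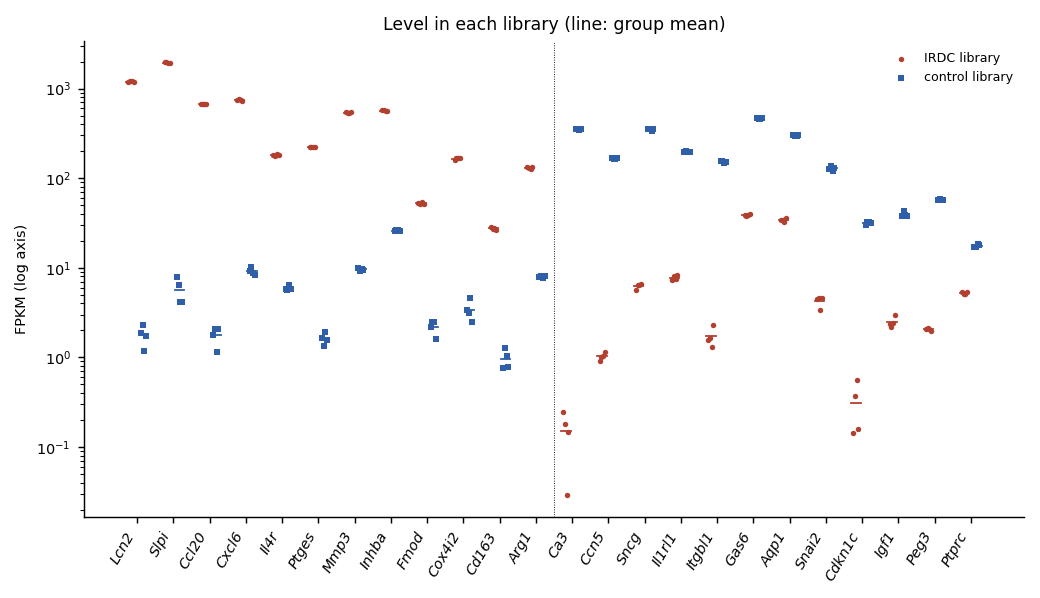
FPKM on a log axis in each IRDC library (red points) and each control library (blue squares) for 24 genes, with the group mean as a line. The 12 genes left of the dotted line rose and the 12 right of it fell, and no gene shown has overlapping groups. Such separation held for 70.9% of all genes.

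Inducible genes of prostaglandin E synthesis rose. Pla2g4a, which frees arachidonic acid, was at 73.1, 73.0, 70.5 and 71.9 FPKM in IRDC libraries, against 12.0, 11.7, 12.4 and 13.0 FPKM in control libraries (log2 change 2.46, SE 0.036, adjusted p = 6.4e-15). Ptgs2 (COX-2), the inducible cyclooxygenase, was at 840.0, 848, 820.2 and 823 FPKM in IRDC libraries, against 17.4, 16.9, 16.4 and 15.3 FPKM in control libraries (log2 change 5.57, SE 0.033, adjusted p = 2.9e-18). Ptges, the inducible synthase of prostaglandin E, was at 223 ± 1.45 FPKM in IRDC, against 1.61 ± 0.232 in control. The constitutive cyclooxygenase gene Ptgs1 fell to 15.9 ± 0.920 FPKM in IRDC, against 45.2 ± 1.43 in control (log2 change -1.45, SE 0.045). On the leukotriene side are a pair of leukocyte genes. Alox5 fell to 0.408 ± 0.151 FPKM in IRDC, against 2.43 ± 0.132 in control, and its partner Alox5ap fell to 0.486 ± 0.299 FPKM in IRDC, against 4.76 ± 0.962 in control. Over the list 6 of 24 members rose (25.0%), all at least 2-fold, and 13 fell (54.2%), close to the 24.6% and 52.0% of all genes.

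Enzymes of nitric oxide, arginine and polyamine metabolism were divided. Gch1, which makes the cofactor of nitric oxide synthases, was at 23.6, 23.1, 23.9 and 26.1 FPKM in IRDC libraries, against 0.731, 0.480, 0.793 and 0.438 FPKM in control libraries (log2 change 3.97, SE 0.076, adjusted p = 8.5e-14). Arg1 (arginase) was at 135, 129, 126 and 132 FPKM in IRDC libraries, against 7.90, 8.01, 7.69 and 8.02 FPKM in control libraries (log2 change 3.88, SE 0.033, adjusted p = 4.3e-17). Both were clear of the control libraries. Nos2, the inducible synthase, was below the filter and was not tested, with 0.685 FPKM in IRDC and 0.00586 FPKM in control. The arginine importer Slc7a2 rose (log2 change 1.88, SE 0.032) and the polyamine enzyme genes Odc1 and Sms fell (-1.24 and -1.41). In the TNF families 13 of 17 members fell (76.5%) and 4 rose (23.5%), beside 52.0% and 24.6% of all genes. Tnfsf18 (GITR ligand) had the largest fall and stood at 0.913, 1.05, 0.709 and 0.604 FPKM in IRDC libraries, against 29.3, 30.7, 30.1 and 27.7 FPKM in control libraries (log2 change -4.07, SE 0.073, adjusted p = 4.7e-14). Eda2r, a p53 target, fell to 3.36 ± 0.465 FPKM in IRDC, against 25.2 ± 1.68 in control.

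Interferon-stimulated genes mostly fell. Of 37 tested members 2 rose and 35 fell, of which 1 and 19 changed at least 2-fold. Irf7, the transcription factor that amplifies type I interferon, stood at 1.01, 0.458, 0.842 and 0.661 FPKM in IRDC libraries, against 9.03, 8.71, 9.53 and 8.26 FPKM in control libraries (log2 change -2.51, SE 0.096, adjusted p = 8.1e-11). The GTPase gene Gbp2 fell to 2.80 ± 0.297 FPKM in IRDC, against 17.8 ± 1.45 in control. A pair of members rose. Usp18, an inhibitor of the interferon receptor, was at 3.77 ± 0.397 FPKM in IRDC, against 1.22 ± 0.370 in control. Irf8 was at 2.38 ± 0.431 FPKM in IRDC, against 1.73 ± 0.190 in control. Irf8 no longer passed without the fourth IRDC library (log2 change 0.25, against 0.30 with it). Genes of MHC class I presentation were divided. Among class I heavy chain genes RT1-A2 rose to 113 ± 1.93 FPKM in IRDC, against 43.8 ± 0.692 in control (log2 change 1.35, SE 0.028). RT1-A1 rose to 26.8 ± 0.780 FPKM in IRDC, against 6.22 ± 0.623 in control (log2 change 1.95, SE 0.054). These are near-identical copies whose reads the authors' counting could split. The peptide transporter gene Tap1 fell to 2.71 ± 0.289 FPKM in IRDC, against 10.3 ± 0.669 in control. Of the immunoproteasome subunit genes, Psmb9 fell to 1.64 ± 0.187 FPKM in IRDC, against 8.28 ± 0.535 in control. Psmb10 fell to 3.33 ± 0.234 FPKM in IRDC, against 14.4 ± 2.12 in control. The light chain gene B2m fell by a small amount (log2 change -0.18, SE 0.020) and did not pass with TMM-like scaling. For the proteasome 25 of 35 genes fell and 5 rose, none of them 2-fold, and with TMM-like scaling 9 rose and 9 fell.

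The list of hypoxia-inducible factors, their hydroxylases and their targets outside glycolysis mostly rose. Of 37 tested members 30 rose and 5 fell, of which 22 and 2 changed at least 2-fold, with a median 1.49 above that of all genes. Angptl4, a secreted inhibitor of lipoprotein lipase, was at 601, 606, 599.9 and 612 FPKM in IRDC libraries, against 4.42, 4.49, 3.86 and 4.13 FPKM in control libraries (log2 change 6.86, SE 0.034, adjusted p = 5.2e-19). Hif1a, the regulated HIF subunit, was at 472, 473, 460.0 and 459 FPKM in IRDC libraries, against 89.8, 96.6, 90.4 and 91.1 FPKM in control libraries (log2 change 2.33, SE 0.024, adjusted p = 2.2e-16). The IRDC and control libraries were apart in both genes. The sister subunit gene Epas1 (HIF2A) rose to 104 ± 1.83 FPKM in IRDC, against 38.8 ± 0.897 in control. The partner genes of these subunits fell. Arnt was at 21.2 ± 1.17 FPKM in IRDC, against 31.3 ± 1.34 in control, and Arnt2 was at 4.93 ± 0.0449 FPKM in IRDC, against 26.6 ± 0.396 in control. The membrane carbonic anhydrase genes Ca12 and Ca9, whose products regulate pH, rose, and Ca14 fell. Ca12 was at 53.9 ± 2.07 FPKM in IRDC, against 0.0644 ± 0.0183 in control, and Ca9 was at 24.9 ± 1.51 FPKM in IRDC, against 0.930 ± 0.190 in control. Vegfa, the main angiogenic factor, rose to 465 ± 4.18 FPKM in IRDC, against 70.5 ± 0.985 in control (log2 change 2.703, SE 0.015). Bnip3, a mitophagy receptor, rose to 438 ± 7.69 FPKM in IRDC, against 51.2 ± 0.959 in control (log2 change 3.07, SE 0.019).

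Promoters of a pair of these genes show the letters acgtgc of the hypoxia response core, in capitals on either strand, where HIF is known to bind. They are examples of genes with a match. The Bnip3 stretch runs from 150 to 31 bases upstream of the start and the Ldha stretch from 120 to 1. The matches begin 100 and 98 bases upstream in Bnip3 and 74 bases upstream in Ldha.

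Bnip3, chr1:203154993-203155112 on the minus strand: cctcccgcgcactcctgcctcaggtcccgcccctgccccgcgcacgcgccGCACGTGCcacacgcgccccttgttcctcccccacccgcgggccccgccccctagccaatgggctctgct
Ldha, chr1:106507972-106508091 on the plus strand: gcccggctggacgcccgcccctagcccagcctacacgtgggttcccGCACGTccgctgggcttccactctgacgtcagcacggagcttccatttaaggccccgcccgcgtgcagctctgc

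The core ACGTGC, searched on both strands, was in 8 of 24 promoters (33.3%) of the hypoxia genes that rose and in 4 of 21 (19.05%) of the glycolysis genes that rose. The share was similar, 4 of 19 (21.05%), among the ATF4 targets that rose, and it was 1 of 9 (11.1%) among the chemokine genes that rose. It was in 6.91% of the tested genes with a promoter and in 4.89% of all promoters. As the core differs from its reverse complement GCACGT, the 2 matches in Bnip3 are a match on each strand and overlap.

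Glucose uptake and glycolysis moved the same way. Of 27 tested members 22 rose and 4 fell, of which 19 and 1 changed at least 2-fold. Pdk1, the kinase that closes pyruvate dehydrogenase, rose to 81.1 ± 3.97 FPKM in IRDC, against 12.2 ± 0.528 in control (log2 change 2.63, SE 0.041). Pfkl, a subunit of phosphofructokinase, rose to 141 ± 3.84 FPKM in IRDC, against 25.8 ± 1.24 in control (log2 change 2.41, SE 0.032). The glycogen phosphorylase gene Pygl rose to 123 ± 2.38 FPKM in IRDC, against 23.5 ± 1.09 in control. Ldha, which makes lactate, was at 923, 923, 933 and 933 FPKM in IRDC libraries, against 383, 378, 371 and 379 FPKM in control libraries (log2 change 1.29, SE 0.012, adjusted p = 1.3e-16). Its counterpart Ldhb fell to 11.6 ± 0.436 FPKM in IRDC, against 18.3 ± 1.51 in control. Pdk2 fell to 4.93 ± 0.358 FPKM in IRDC, against 10.9 ± 0.484 in control. In the respiratory chain the members of the isoform pairs given here changed unequally, and their levels came closer together. Cox4i2, the hypoxic isoform of a cytochrome oxidase subunit, was at 158, 168, 168 and 167 FPKM in IRDC libraries, against 3.40, 3.12, 4.64 and 2.51 FPKM in control libraries (log2 change 5.25, SE 0.11, adjusted p = 1.5e-13). Its sister Cox4i1 stood at 259 ± 1.11 FPKM in IRDC, against 279.7 ± 11.6 in control (log2 change -0.11, SE 0.024), a small change that turned direction with TMM-like scaling. Ndufa4l2, also induced by HIF, rose to 64.7 ± 2.22 FPKM in IRDC, against 1.70 ± 0.346 in control. Its relative Ndufa4 fell to 48.8 ± 0.545 FPKM in IRDC, against 101.8 ± 6.45 in control (log2 change -1.04, SE 0.042). Of 68 nuclear-encoded respiratory chain genes 56 fell and 4 rose, Cox4i2 and Ndufa4 being the members that changed at least 2-fold, and with TMM-like scaling 31 fell and 11 rose. Without the third control library 2 of these genes rose instead of 4. In the citrate cycle and fatty acid oxidation 34 of 42 fell (81.0%) and 3 rose (7.14%), beside 52.0% and 24.6% of all genes. At least 2-fold changes were 4 falls and 0 rises, and with TMM-like scaling 28 fell and 8 rose. Idh1, the cytosolic isocitrate dehydrogenase gene, fell to 23.1 ± 0.663 FPKM in IRDC, against 109 ± 1.28 in control (log2 change -2.20, SE 0.024).

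**Figure D3:**
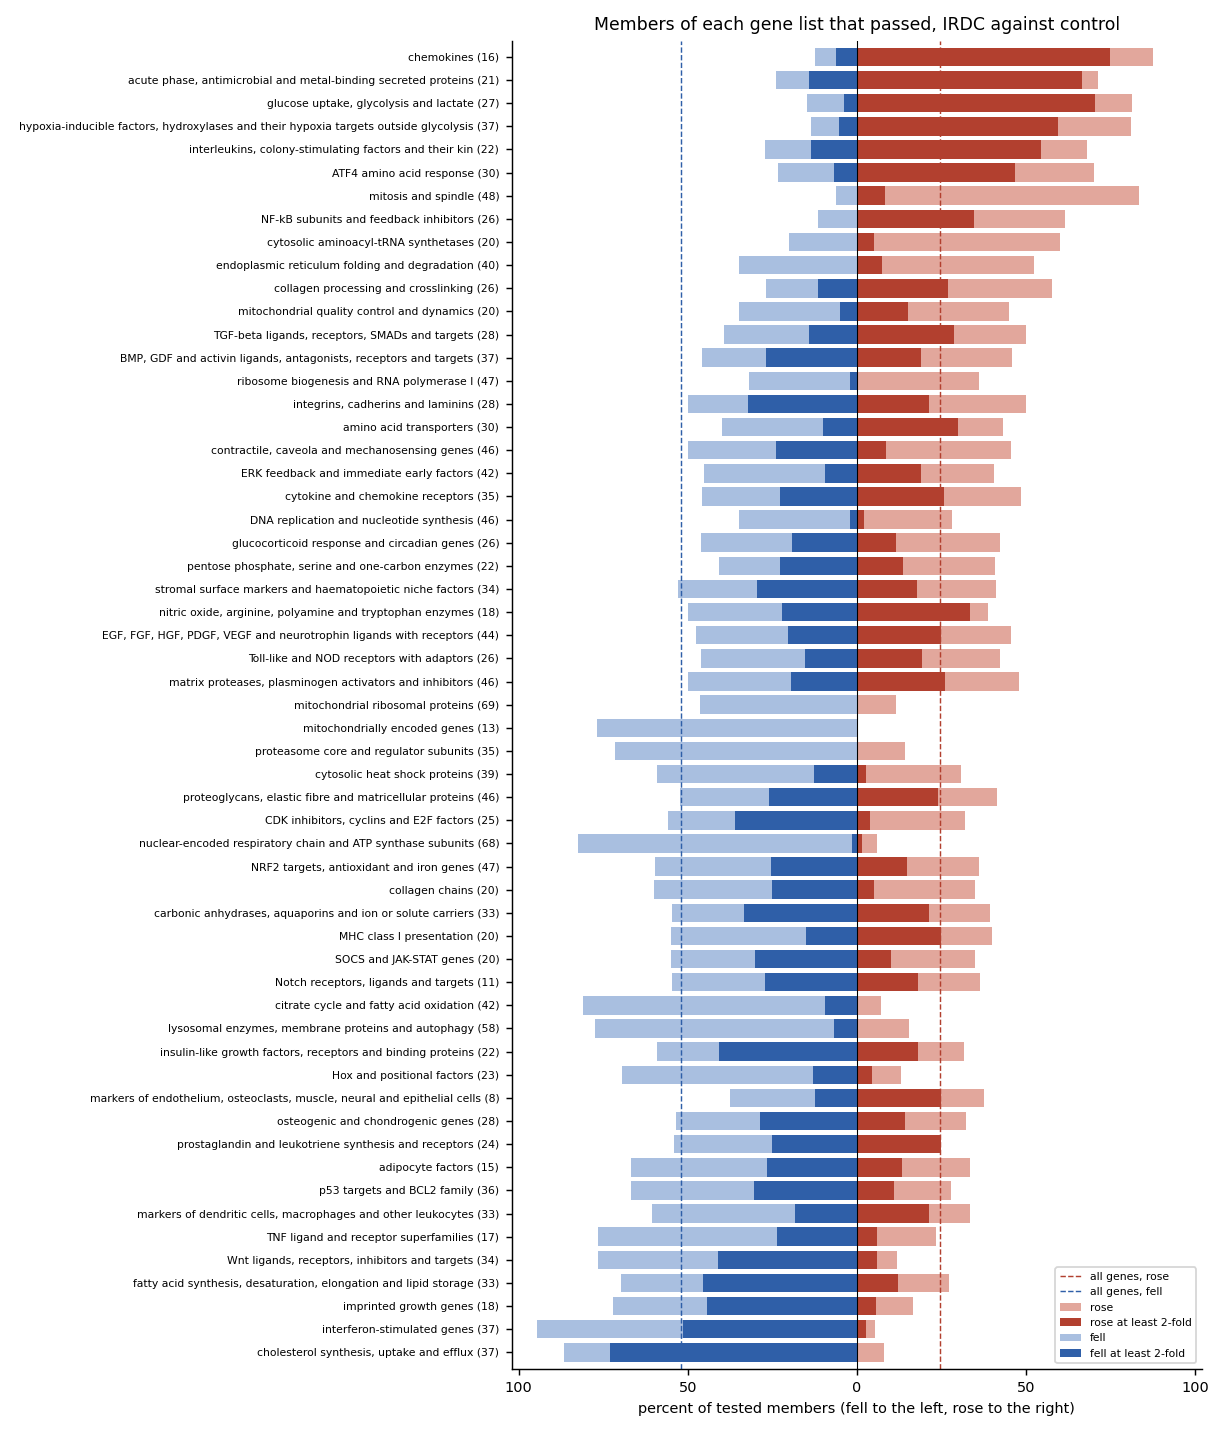
Percent of the tested members of each gene list (number in brackets) that rose (right, red) or fell (left, blue) in IRDC against control, with at least 2-fold changes in the darker shade. Dashed lines show the percent of all genes that rose (24.6%) and fell (52.0%), and the lists are ordered from the highest median log2 change (chemokines) to the lowest (cholesterol).

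Cholesterol genes were the list with the lowest median, -1.41 relative to all genes. Of 37 tested members 3 rose and 32 fell, of which 0 and 27 changed at least 2-fold. Tm7sf2, a reductase of late sterol synthesis, was at 0.579, 0.732, 0.629 and 0.943 FPKM in IRDC libraries, against 16.7, 15.8, 16.2 and 17.1 FPKM in control libraries (log2 change -3.35, SE 0.093, adjusted p = 3.3e-12). Hsd17b7, another late enzyme, was at 1.17 ± 0.193 FPKM in IRDC, against 16.2 ± 0.435 in control. Insig1, the sterol-sensing brake that SREBP also drives, fell to 32.6 ± 1.26 FPKM in IRDC, against 143 ± 2.004 in control (log2 change -2.09, SE 0.029). Of the 3 members that rose, Insig2 was at 38.3 ± 1.81 FPKM in IRDC, against 20.1 ± 1.01 in control. Ch25h, which makes an oxysterol, was at 3.69 ± 0.763 FPKM in IRDC, against 1.72 ± 0.388 in control. Soat1, which esterifies cholesterol, was at 86.0 ± 1.88 FPKM in IRDC, against 61.7 ± 1.65 in control. The letters TCACNCCAC of a sterol regulatory element were in none of the 23 promoters of cholesterol genes that fell, beside 1.05% of tested genes. That says only that these letters are not in the 250 bases searched.

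In the list of fatty acid synthesis and storage 23 of 33 members fell (69.7%) and 9 rose (27.3%), beside 52.0% and 24.6% of all genes. The desaturase gene Fads1 fell to 15.9 ± 0.557 FPKM in IRDC, against 77.7 ± 0.840 in control (log2 change -2.22, SE 0.030). Acss2, which makes acetyl-CoA, fell to 5.56 ± 0.225 FPKM in IRDC, against 29.6 ± 0.853 in control. The synthase gene Fasn fell to 19.6 ± 1.03 FPKM in IRDC, against 48.0 ± 1.59 in control. Some members that act on lipid droplets rose, and the droplet coat gene Plin4 fell. Hilpda, a hypoxia-induced inhibitor of lipolysis, was at 94.0, 96.8, 110.4 and 100.5 FPKM in IRDC libraries, against 11.46, 11.2, 10.6 and 9.65 FPKM in control libraries (log2 change 3.11, SE 0.067, adjusted p = 2.7e-13). Plin2, a droplet coat protein, was at 129 ± 1.54 FPKM in IRDC, against 45.4 ± 0.811 in control. Dgat2, which makes triglyceride, was at 23.1 ± 0.327 FPKM in IRDC, against 5.78 ± 0.634 in control.

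ATF4 targets mostly rose. Of 30 tested members 21 rose and 7 fell, of which 14 and 2 changed at least 2-fold. Ddit4, an inhibitor of mTORC1, rose to 171 ± 1.65 FPKM in IRDC, against 24.2 ± 0.657 in control (log2 change 2.77, SE 0.022). The cystine importer gene Slc7a11 rose to 7.82 ± 0.0491 FPKM in IRDC, against 1.68 ± 0.144 in control. Asns, which makes asparagine, rose to 95.4 ± 1.99 FPKM in IRDC, against 45.4 ± 0.904 in control (log2 change 1.05, SE 0.024). Atf4 itself rose to 242 ± 2.99 FPKM in IRDC, against 156 ± 1.66 in control (log2 change 0.63, SE 0.017). Trib3, a pseudokinase that feeds back on ATF4, was at 30.4, 31.7, 30.3 and 29.9 FPKM in IRDC libraries, against 8.77, 8.68, 7.45 and 7.19 FPKM in control libraries (log2 change 1.81, SE 0.056, adjusted p = 9.1e-12). Its promoter holds the amino acid response element TGATGNAA, here on the other strand and in capitals, close to the start.

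Trib3, chr3:161275534-161275653 on the minus strand: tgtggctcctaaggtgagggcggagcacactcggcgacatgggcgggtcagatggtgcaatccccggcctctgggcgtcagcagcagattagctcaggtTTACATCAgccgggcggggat

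That element was in 4 of 19 promoters (21.1%) of the ATF4 targets that rose, against 1.67% of tested genes and 3.27% of all promoters. In the same 19 promoters the hypoxia core ACGTGC was as frequent, with 4 matches as well. Not all targets moved this way: Ddit3 (CHOP) fell to 26.1 ± 1.40 FPKM in IRDC, against 45.1 ± 2.94 in control. The stress cytokine gene Gdf15 fell to 1.498 ± 0.368 FPKM in IRDC, against 7.95 ± 0.882 in control. In mitochondrial one-carbon metabolism Mthfd1l rose to 44.8 ± 0.583 FPKM in IRDC, against 4.48 ± 0.448 in control (log2 change 3.07, SE 0.053). Shmt2 rose to 80.4 ± 2.38 FPKM in IRDC, against 23.4 ± 0.495 in control. Of the 20 cytosolic aminoacyl-tRNA synthetases 12 rose and 4 fell, and Vars1 alone rose at least 2-fold (log2 change 1.40, SE 0.038). Amino acid importers that rose included Slc1a5 for glutamine (log2 change 1.69, SE 0.046) and Slc1a1 for glutamate (log2 change 2.19, SE 0.078), and the creatine importer Slc6a8 fell (log2 change -1.27, SE 0.064).

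Oxidant defence was divided. Sod2, the mitochondrial superoxide dismutase, was at 969.5, 973, 956 and 962 FPKM in IRDC libraries, against 48.0, 45.1, 44.8 and 46.5 FPKM in control libraries (log2 change 4.36, SE 0.021, adjusted p = 5.0e-19). The peroxiredoxin gene Prdx5 rose to 899.8 ± 14.6 FPKM in IRDC, against 282 ± 10.7 in control. Among targets of NRF2, Hmox1 rose to 480.3 ± 7.02 FPKM in IRDC, against 222 ± 5.93 in control (log2 change 1.11, SE 0.020). Nqo1, another NRF2 target, fell to 101.6 ± 2.56 FPKM in IRDC, against 329 ± 9.36 in control (log2 change -1.69, SE 0.027). The iron importer gene Tfrc rose (log2 change 0.83, SE 0.029) and the ferroxidase gene Heph fell (log2 change -2.16, SE 0.092). In the endoplasmic reticulum, 21 of 40 genes rose (52.5%) and 14 fell (35.0%), beside 24.6% and 52.0% of all genes. At least 2-fold changes were 3 rises and 0 falls. The largest rise was that of the HIF-inducible oxidase gene Ero1a, at 491 ± 9.03 FPKM in IRDC, against 118 ± 2.73 in control (log2 change 2.05, SE 0.020). Among cytosolic heat shock genes, Hsph1 rose to 96.4 ± 1.27 FPKM in IRDC, against 42.0 ± 0.644 in control. The small chaperone gene Cryab fell to 0.777 ± 0.183 FPKM in IRDC, against 19.8 ± 0.514 in control. Hspb7, of the same family, fell to 0.695 ± 0.0990 FPKM in IRDC, against 9.25 ± 0.556 in control. Of the lysosomal genes 45 of 58 fell (77.6%) and 9 rose (15.5%), beside 52.0% and 24.6% of all genes. At least 2-fold changes were 4 falls and 0 rises, and with TMM-like scaling 39 fell and 13 rose. Lipa, the acid lipase, was at 21.2 ± 0.503 FPKM in IRDC, against 60.003 ± 1.94 in control (log2 change -1.46, SE 0.030). The ceramidase gene Asah1 was at 87.8 ± 2.997 FPKM in IRDC, against 199.7 ± 5.58 in control.

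Ligands of the TGF-beta superfamily changed in opposite directions. Inhba, the subunit of activin A, was at 572, 570.2, 566 and 563 FPKM in IRDC libraries, against 25.9, 26.2, 26.1 and 25.8 FPKM in control libraries (log2 change 4.40, SE 0.020, adjusted p = 4.9e-19). Fstl3, which binds activin, rose to 54.8 ± 1.34 FPKM in IRDC, against 4.17 ± 0.210 in control (log2 change 3.43, SE 0.042). The BMP ligand gene Bmp6 was at 21.2, 19.1, 21.7 and 21.4 FPKM in IRDC libraries, against 1.33, 0.935, 1.29 and 1.01 FPKM in control libraries (log2 change 3.36, SE 0.080, adjusted p = 7.7e-13). Its relative Bmp4 was at 1.69, 1.54, 1.82 and 1.86 FPKM in IRDC libraries, against 67.6, 69.2, 67.0 and 68.3 FPKM in control libraries (log2 change -4.66, SE 0.039, adjusted p = 4.1e-17). Every IRDC library was above every control library for Inhba and Bmp6 and below for Bmp4. The BMP antagonist gene Chrd fell to 0.454 ± 0.101 FPKM in IRDC, against 8.41 ± 0.492 in control. Of the Id genes, direct targets of BMP signals, Id1 and Id4 fell, Id3 rose and Id2 did not pass. Id1 was at 3.45 ± 0.415 FPKM in IRDC, against 6.89 ± 0.402 in control, and Id4 was at 1.202 ± 0.185 FPKM in IRDC, against 17.5 ± 0.988 in control. Over the list 17 of 37 rose (45.9%) and 17 fell (45.9%), beside 24.6% and 52.0% of all genes. With TMM-like scaling 21 rose and 13 fell. Among TGF-beta targets the matricellular gene Ccn3 rose to 217 ± 2.85 FPKM in IRDC, against 32.4 ± 1.16 in control. Its relative Ccn5 was at 1.03 ± 0.0909 FPKM in IRDC, against 166 ± 2.9998 in control. This was the second largest fall in log2 change among genes with a symbol. The rank depends on the 1 FPKM added before the logarithm. As a ratio of levels Cavin2 fell further, with at most 0.0447 FPKM in IRDC and at least 59.7 FPKM in control libraries. The receptor gene Tgfbr2 fell to 44.4 ± 0.911 FPKM in IRDC, against 101 ± 1.99 in control (log2 change -1.16, SE 0.022).

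**Figure D4:**
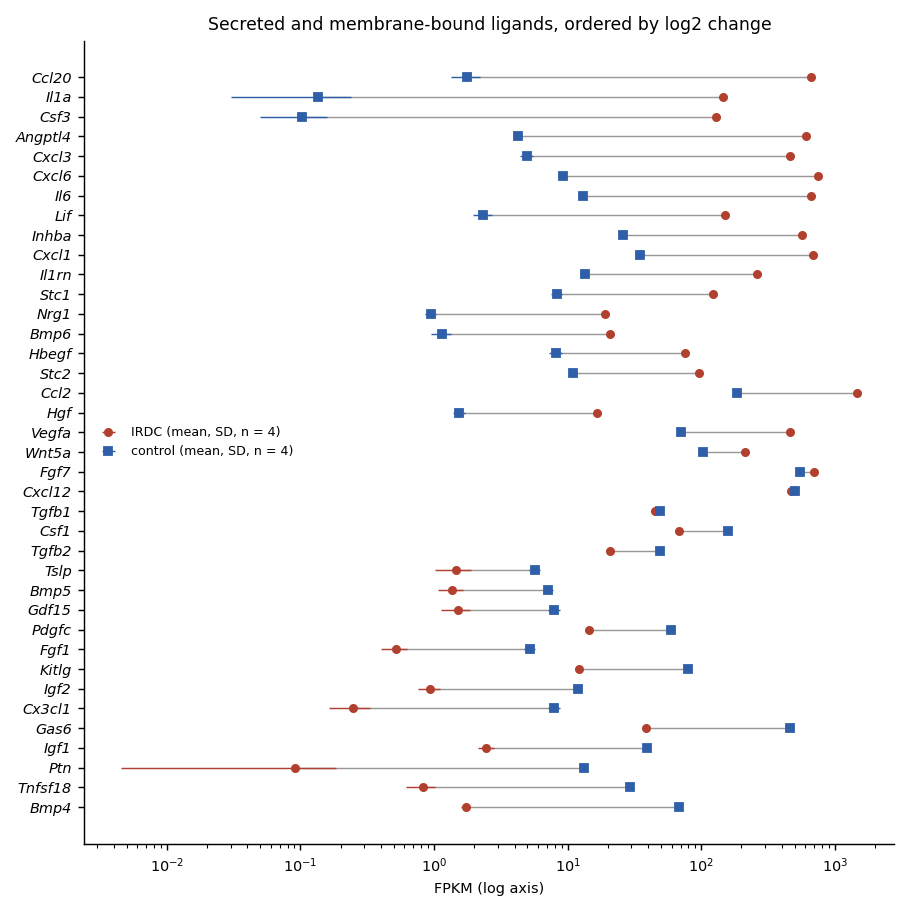
Mean FPKM (log axis, with SD, n = 4) in IRDC (red points) and control (blue squares) for 38 secreted or membrane-bound ligands, ordered by log2 change from Ccl20 (top) to Bmp4 (bottom). The symbols of Cxcl12 and Tgfb1 nearly coincide, and those of Ccl20 and Bmp4 lie far apart.

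Genes of Wnt signalling mostly fell. Of 34 tested members 4 rose and 26 fell, of which 2 and 14 changed at least 2-fold. Lgr5, a receptor of R-spondins and a Wnt target, was at 3.07, 2.75, 2.86 and 3.29 FPKM in IRDC libraries, against 26.0, 26.1, 27.3 and 24.5 FPKM in control libraries (log2 change -2.76, SE 0.049, adjusted p = 4.1e-14). The receptor gene Fzd4 was at 0.932 ± 0.0950 FPKM in IRDC, against 7.99 ± 0.230 in control. The secreted protein gene Dkk3 fell to 36.0 ± 0.667 FPKM in IRDC, against 149.5 ± 1.55 in control. Wnt5a, a ligand of the non-canonical branch, rose to 211 ± 1.248 FPKM in IRDC, against 104 ± 1.05 in control (log2 change 1.01, SE 0.015). Ror1, a receptor for it, fell to 1.15 ± 0.169 FPKM in IRDC, against 7.42 ± 0.416 in control. In the Notch pathway the ligand gene Jag1 fell to 2.37 ± 0.154 FPKM in IRDC, against 17.7 ± 0.588 in control (log2 change -2.47, SE 0.051). The target gene Hes1 fell to 1.44 ± 0.575 FPKM in IRDC, against 10.2 ± 0.872 in control. The receptor gene Notch3 fell to 0.209 ± 0.0679 FPKM in IRDC, against 2.50 ± 0.171 in control. Notch4, a receptor of endothelium, rose to 9.15 ± 0.305 FPKM in IRDC, against 0.159 ± 0.0403 in control.

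Insulin-like growth factors fell. Igf1 was at 2.33, 2.17, 2.40 and 2.95 FPKM in IRDC libraries, against 37.5, 43.2, 38.5 and 37.9 FPKM in control libraries (log2 change -3.54, SE 0.066, adjusted p = 6.2e-14). Igf2 was at 1.17, 0.970, 0.842 and 0.768 FPKM in IRDC libraries, against 11.3, 12.3, 12.2 and 12.3 FPKM in control libraries (log2 change -2.76, SE 0.077, adjusted p = 3.6e-12). The binding protein genes changed in both directions. Igfbp5 fell to 0.774 ± 0.118 FPKM in IRDC, against 17.3 ± 0.340 in control. Igfbp6 fell to 0.761 ± 0.268 FPKM in IRDC, against 13.1 ± 1.55 in control. Igfbp3 rose to 31.1 ± 0.632 FPKM in IRDC, against 10.1 ± 0.579 in control. The stanniocalcins, which inhibit the protease that frees IGF, rose. Stc1 was at 123 ± 2.16 FPKM in IRDC, against 8.26 ± 0.747 in control, and Stc2 was at 95.5 ± 1.10 FPKM in IRDC, against 11.04 ± 0.771 in control. Igf2, Cdkn1c, Peg3, Plagl1 and Zim1 belong to the imprinted growth genes, of which 13 of 18 fell and 3 rose. Peg3 was at 2.09, 2.11, 2.08 and 1.95 FPKM in IRDC libraries, against 56.7, 58.0, 56.7 and 57.2 FPKM in control libraries (log2 change -4.25, SE 0.031, adjusted p = 1.2e-17). Plagl1, a zinc finger factor, was at 2.16 ± 0.126 FPKM in IRDC, against 45.8 ± 0.568 in control (log2 change -3.89, SE 0.053). Zim1 was at 0.0457 ± 0.0244 FPKM in IRDC, against 6.60 ± 0.146 in control. Dcn, which is imprinted in the mouse, rose to 1398 ± 18.0 FPKM in IRDC, against 672 ± 12.0 in control.

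Other growth factors and their receptors were divided as well, 20 of 44 being higher (45.5%) and 21 lower (47.7%), beside 24.6% and 52.0% of all genes. With TMM-like scaling 22 were higher and 20 lower. Hgf was at 16.1, 16.8, 16.5 and 16.6 FPKM in IRDC libraries, against 1.62, 1.61, 1.64 and 1.32 FPKM in control libraries (log2 change 2.78, SE 0.055, adjusted p = 1.2e-13). Of the ligands of the EGF receptor family, Areg fell, and Hbegf and Nrg1 rose. Hbegf was at 75.6 ± 0.768 FPKM in IRDC, against 8.17 ± 0.963 in control, and Nrg1 was at 19.2 ± 0.118 FPKM in IRDC, against 0.947 ± 0.0851 in control. Gas6, the ligand of the TAM receptors, was at 38.8, 37.7, 38.8 and 39.7 FPKM in IRDC libraries, against 467, 453, 457 and 469 FPKM in control libraries (log2 change -3.54, SE 0.023, adjusted p = 5.3e-18). Kitlg (stem cell factor), which feeds blood stem cells, was at 12.8, 12.7, 12.2 and 10.98 FPKM in IRDC libraries, against 80.0, 81.5, 77.4 and 77.1 FPKM in control libraries (log2 change -2.60, SE 0.043, adjusted p = 1.9e-14). In both the control libraries were all above the IRDC libraries. The receptor gene Fgfr2 fell to 1.65 ± 0.108 FPKM in IRDC, against 13.8 ± 0.583 in control. The ligand gene Fgf1 fell to 0.515 ± 0.114 FPKM in IRDC, against 5.23 ± 0.476 in control. Among other niche factors Vcam1 fell to 6.03 ± 0.4401 FPKM in IRDC, against 32.7 ± 0.886 in control (log2 change -2.26, SE 0.048). Ptn (pleiotrophin) fell to 0.0912 ± 0.0941 FPKM in IRDC, against 13.3 ± 0.751 in control. Nt5e (CD73), a surface marker of stromal cells, rose to 164 ± 4.23 FPKM in IRDC, against 22.8 ± 1.11 in control (log2 change 2.80, SE 0.032).

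Transcription factors of fat and bone formation changed. Cebpb and Cebpd, early adipogenic factors that inflammation also induces, rose. Cebpb was at 84.5 ± 6.45 FPKM in IRDC, against 20.2 ± 1.64 in control, and Cebpd was at 99.3 ± 4.41 FPKM in IRDC, against 22.2 ± 1.65 in control. The later factor gene Klf15 fell to 3.60 ± 0.360 FPKM in IRDC, against 9.61 ± 0.488 in control (log2 change -1.21, SE 0.062). Dlx5, a homeobox factor of osteoblasts, fell to 1.39 ± 0.294 FPKM in IRDC, against 6.61 ± 0.593 in control. Its neighbour in the family, Dlx6, fell to 1.10 ± 0.609 FPKM in IRDC, against 4.999 ± 1.14 in control. Smpd3, needed for mineralisation in the mouse, fell to 0.312 ± 0.0600 FPKM in IRDC, against 8.75 ± 0.458 in control (log2 change -2.89, SE 0.069). Snai2, a mesenchymal zinc finger factor, was at 4.47, 4.58, 3.34 and 4.58 FPKM in IRDC libraries, against 127, 137, 121 and 130.4 FPKM in control libraries (log2 change -4.64, SE 0.075, adjusted p = 1.6e-14). Of 23 Hox and positional factors 16 fell and 3 rose. Eya1 fell to 5.58 ± 0.4997 FPKM in IRDC, against 20.5 ± 1.52 in control. Tbx3 rose to 16.1 ± 1.04 FPKM in IRDC, against 6.38 ± 0.412 in control.

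Matrix genes changed in both directions. Of 20 collagen chains 12 fell and 7 rose, shares near the 52.0% and 24.6% of all genes. Col6a1, a chain of the microfibrillar collagen VI, was at 78.9, 74.2, 76.3 and 74.7 FPKM in IRDC libraries, against 405, 384, 397 and 404 FPKM in control libraries (log2 change -2.37, SE 0.023, adjusted p = 1.7e-16). Col6a2, another chain of it, was at 95.2 ± 0.756 FPKM in IRDC, against 369 ± 10.4 in control. Col14a1, which sits on collagen fibrils, fell to 171 ± 1.11 FPKM in IRDC, against 512 ± 5.64 in control. Col4a1 of basement membranes fell to 109 ± 0.936 FPKM in IRDC, against 223 ± 6.16 in control. The fibril collagen gene Col3a1 fell to 1181 ± 5.45 FPKM in IRDC, against 1917 ± 30.8 in control. Col12a1, which also sits on fibrils, rose to 245 ± 1.95 FPKM in IRDC, against 125 ± 1.505 in control. Col5a1 rose to 357 ± 2.90 FPKM in IRDC, against 216 ± 6.27 in control. Col7a1, the anchoring fibril collagen, rose to 7.30 ± 0.184 FPKM in IRDC, against 0.0773 ± 0.0120 in control.

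Among collagen-modifying enzymes 15 of 26 rose (57.7%) and 7 fell (26.9%), beside 24.6% and 52.0% of all genes. The hydroxylase gene Plod2 was at 719.6, 717, 689 and 699 FPKM in IRDC libraries, against 81.9, 86.2, 81.4 and 82.4 FPKM in control libraries (log2 change 3.07, SE 0.021, adjusted p = 6.8e-18). P4ha2, another hydroxylase gene, was at 327 ± 4.09 FPKM in IRDC, against 63.5 ± 2.48 in control. Both are known HIF targets. Lox, which crosslinks collagen, rose to 1033 ± 13.0 FPKM in IRDC, against 542 ± 7.07 in control. Its relative Loxl1 fell to 35.7 ± 2.14 FPKM in IRDC, against 151 ± 4.37 in control, and Loxl3 fell to 19.9 ± 1.10 FPKM in IRDC, against 76.4 ± 2.16 in control.

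Fmod (fibromodulin), a small leucine-rich proteoglycan, was at 52.97, 51.9, 53.9 and 51.6 FPKM in IRDC libraries, against 2.17, 2.48, 2.46 and 1.58 FPKM in control libraries (log2 change 4.09, SE 0.079, adjusted p = 8.6e-14). Its relative Ogn (osteoglycin) was at 0.163, 0.159, 0.0925 and 0.156 FPKM in IRDC libraries, against 23.5, 25.9, 24.5 and 23.8 FPKM in control libraries (log2 change -4.48, SE 0.10, adjusted p = 3.9e-13). The groups were apart in opposite directions. Emilin1, an elastic fibre protein, rose to 479 ± 8.98 FPKM in IRDC, against 45.0 ± 2.04 in control. The hyaluronan synthase gene Has2 rose to 216 ± 5.75 FPKM in IRDC, against 35.8 ± 1.81 in control. Tnfaip6, whose product crosslinks hyaluronan, rose to 75.3 ± 2.79 FPKM in IRDC, against 13.4 ± 0.341 in control. Tnc (tenascin C), a matrix protein of injury, rose to 434 ± 3.51 FPKM in IRDC, against 109 ± 0.812 in control. Efemp1, a fibulin, fell to 0.940 ± 0.425 FPKM in IRDC, against 40.8 ± 1.69 in control. Eln (elastin) fell to 0.0131 ± 0.0184 FPKM in IRDC, against 2.95 ± 0.125 in control. The matricellular gene Smoc1 fell to 2.50 ± 0.194 FPKM in IRDC, against 25.9 ± 1.43 in control. Pamr1 fell to 0.527 ± 0.0991 FPKM in IRDC, against 21.0 ± 0.725 in control. Fn1 (fibronectin) rose by 0.61 to 3420.2 ± 2.21 FPKM in IRDC, against 2244 ± 31.5 in control.

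Several matrix proteases rose. Mmp3 (stromelysin) was at 542, 537, 530.3 and 546 FPKM in IRDC libraries, against 9.85, 9.31, 9.79 and 9.51 FPKM in control libraries (log2 change 5.67, SE 0.021, adjusted p = 8.6e-20). Its relative Mmp10 was at 99.8 ± 2.61 FPKM in IRDC, against 2.30 ± 0.593 in control. The collagenase gene Mmp13 was at 248 ± 8.14 FPKM in IRDC, against 35.7 ± 1.15 in control. Timp1, an inhibitor of these proteases, was at 2311, 2300.2, 2299 and 2318 FPKM in IRDC libraries, against 401, 401, 379 and 401 FPKM in control libraries (log2 change 2.54, SE 0.018, adjusted p = 1.1e-17). Timp3, which binds to the matrix, fell to 5.64 ± 0.815 FPKM in IRDC, against 34.5 ± 0.767 in control (log2 change -2.43, SE 0.087). The urokinase receptor gene Plaur rose to 149 ± 4.21 FPKM in IRDC, against 20.3 ± 1.64 in control. Urokinase itself, Plau, fell to 9.25 ± 0.467 FPKM in IRDC, against 26.7 ± 0.752 in control (log2 change -1.43, SE 0.040). Mmp2 fell by 0.55 on the log2 scale, and over the list 22 of 46 rose and 23 fell, with 23 and 22 under TMM-like scaling.

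Adhesion genes were split, with 14 of 28 higher and 14 lower. Itga5, a subunit of the fibronectin receptor, rose to 95.7 ± 1.58 FPKM in IRDC, against 34.3 ± 0.275 in control (log2 change 1.45, SE 0.019). N-cadherin, Cdh2, rose to 161 ± 2.07 FPKM in IRDC, against 42.8 ± 0.623 in control. The laminin receptor subunit Itga6 fell to 0.223 ± 0.0491 FPKM in IRDC, against 9.76 ± 0.186 in control. Itga4, which binds VCAM1, fell to 0.237 ± 0.0532 FPKM in IRDC, against 5.63 ± 0.239 in control. Cdh11, the mesenchymal cadherin, fell to 47.8 ± 0.548 FPKM in IRDC, against 153 ± 2.65 in control. Itgbl1, an integrin-like secreted protein, was at 1.58, 1.66, 1.29 and 2.32 FPKM in IRDC libraries, against 154, 154, 147 and 153 FPKM in control libraries (log2 change -5.83, SE 0.085, adjusted p = 6.0e-15). Sncg (gamma-synuclein) had a similar course and was at 5.70, 6.49, 6.47 and 6.53 FPKM in IRDC libraries, against 356, 350.3, 334 and 352 FPKM in control libraries (log2 change -5.58, SE 0.038, adjusted p = 6.8e-18). Both were among the 20 genes with the largest decreases. Of the caveola coat genes, Cavin1 fell to 52.3 ± 0.694 FPKM in IRDC, against 218 ± 5.27 in control (log2 change -2.04, SE 0.023). Cavin2 fell to 0.0297 ± 0.0208 FPKM in IRDC, against 60.4 ± 0.792 in control. The caveolin gene Cav1 fell by 0.37 and Cav2 rose by 1.15 on the log2 scale. Cnn1 (calponin) rose to 119 ± 6.27 FPKM in IRDC, against 7.94 ± 0.780 in control (log2 change 3.75, SE 0.056). Acta2, the smooth muscle actin, fell to 136 ± 3.05 FPKM in IRDC, against 228 ± 3.86 in control (log2 change -0.74, SE 0.021).

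**Figure D5:**
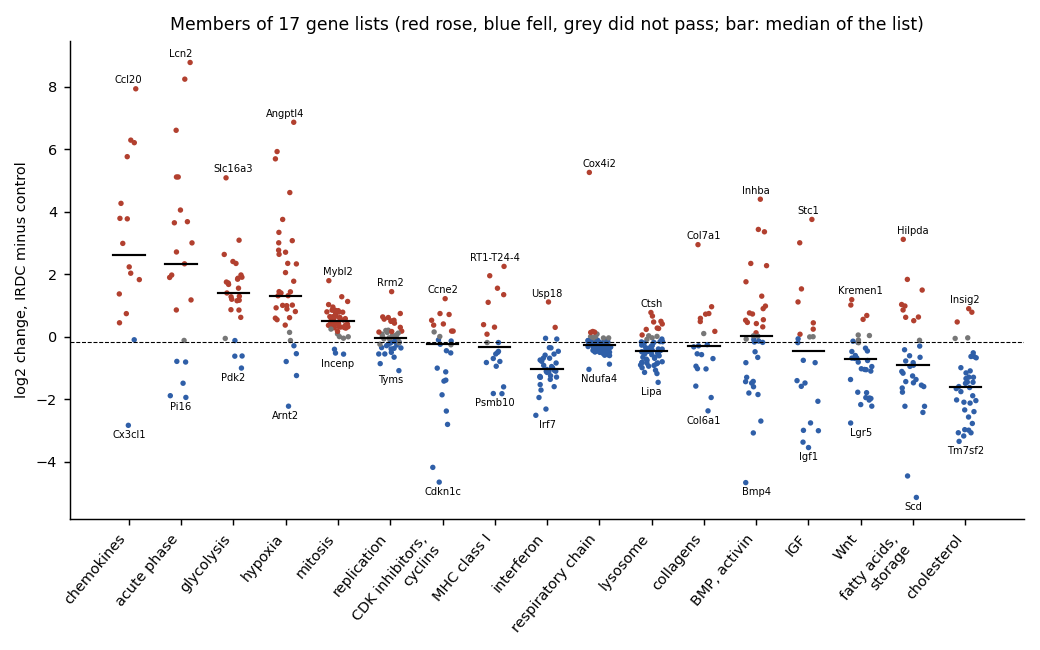
Log2 change (IRDC minus control) of each tested member of 17 gene lists, with the list's median as a bar and the median of all genes (-0.18) as a dashed line. The most extreme member in each direction is named. Members of the mitosis list lay mostly above the line in a narrow band, and the BMP, IGF and CDK inhibitor lists had members far on either side.

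Genes of mitosis rose together by small amounts. Of 48 tested members 40 rose and 3 fell, of which 4 and 0 changed at least 2-fold. Cdk1 was at 17.8, 19.9, 20.2 and 18.4 FPKM in IRDC libraries, against 8.75, 8.34, 9.52 and 8.75 FPKM in control libraries (log2 change 1.03, SE 0.065, adjusted p = 1.4e-08). Mybl2, a transcription factor of dividing cells, was at 5.62 ± 0.332 FPKM in IRDC, against 0.922 ± 0.272 in control. The proliferation marker Mki67 was at 6.29 ± 0.284 FPKM in IRDC, against 3.75 ± 0.222 in control (log2 change 0.62, SE 0.051). DNA replication genes were divided, with 13 of 46 higher (28.3%) and 16 lower (34.8%), beside 24.6% and 52.0% of all genes. With TMM-like scaling 22 were higher and 10 lower. In the list of CDK inhibitors, cyclins and E2F factors 14 of 25 fell (56.0%) and 8 rose (32.0%), near the 52.0% and 24.6% of all genes. Under TMM-like scaling 11 fell and 10 rose, as they did after quantile normalization. Cdkn1c (p57) was at 0.143, 0.373, 0.565 and 0.160 FPKM in IRDC libraries, against 30.3, 32.5, 32.2 and 31.3 FPKM in control libraries (log2 change -4.65, SE 0.098, adjusted p = 2.1e-13). Cdkn2a was at 3.75 ± 0.669 FPKM in IRDC, against 31.9 ± 1.73 in control (log2 change -2.80, SE 0.085). Its neighbour Cdkn2b was at 1.45 ± 0.189 FPKM in IRDC, against 43.2 ± 0.944 in control. Cdkn1b (p27) rose to 60.6 ± 1.41 FPKM in IRDC, against 35.8 ± 1.51 in control (log2 change 0.74, SE 0.040). The D-type cyclin genes fell. Ccnd1 was at 62.6 ± 2.13 FPKM in IRDC, against 169 ± 3.35 in control, and Ccnd2 was at 43.6 ± 2.62 FPKM in IRDC, against 230.3 ± 5.61 in control. The E-type cyclin gene Ccne2 rose to 10.04 ± 0.541 FPKM in IRDC, against 3.74 ± 0.154 in control. Over the list of p53 targets and BCL2 genes 24 of 36 fell (66.7%) and 10 rose (27.8%), beside 52.0% and 24.6% of all genes. Ccng1 was at 101.8 ± 2.18 FPKM in IRDC, against 371 ± 5.67 in control (log2 change -1.86, SE 0.019). Sesn3 was at 6.83 ± 0.147 FPKM in IRDC, against 34.0 ± 0.628 in control. Mdm2, which degrades p53, was at 73.1 ± 1.73 FPKM in IRDC, against 122 ± 2.15 in control. Btg2 rose to 53.5 ± 1.78 FPKM in IRDC, against 8.92 ± 0.275 in control.

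Early response and hormone-linked genes gave a mixed picture. Ier3 rose to 257 ± 5.22 FPKM in IRDC, against 36.4 ± 1.95 in control. Of the AP-1 factors, Junb rose to 111 ± 2.35 FPKM in IRDC, against 27.8 ± 1.31 in control, and Fosl1 rose to 33.5 ± 1.17 FPKM in IRDC, against 11.2 ± 0.809 in control. Fos fell to 2.75 ± 0.789 FPKM in IRDC, against 5.40 ± 0.955 in control. Myc rose to 23.2 ± 0.879 FPKM in IRDC, against 8.28 ± 0.391 in control (log2 change 1.38, SE 0.041). Klf4 fell to 21.4 ± 1.04 FPKM in IRDC, against 59.95 ± 1.32 in control. The glucocorticoid target Tsc22d3 (GILZ) fell to 16.8 ± 0.580 FPKM in IRDC, against 43.4 ± 1.11 in control. Sgk1, another, fell to 13.8 ± 0.477 FPKM in IRDC, against 29.8 ± 0.755 in control. Fkbp5, also such a target, stood at 3.76 ± 0.588 FPKM in IRDC, against 3.12 ± 0.421 in control and did not pass (adjusted p = 0.067). It passed with log2 changes of 0.26, 0.25 and 0.26 without the second IRDC, the fourth IRDC or the first control library. The clock output genes Dbp and Tef fell (-1.15 and -1.12) and their opponent Nfil3 rose to 30.0 ± 1.56 FPKM in IRDC, against 3.68 ± 0.478 in control (log2 change 2.73, SE 0.071). Among carriers, the water channel gene Aqp1 was at 34.2, 34.5, 32.5 and 35.9 FPKM in IRDC libraries, against 305, 298, 296 and 300.3 FPKM in control libraries (log2 change -3.09, SE 0.026, adjusted p = 4.3e-17). The cytosolic carbonic anhydrase gene Ca3 had the largest fall of all genes in log2 change. It was at 0.246, 0.180, 0.0291 and 0.147 FPKM in IRDC libraries, against 351, 349, 341 and 354 FPKM in control libraries. Ca4, on the cell surface, rose to 37.4 ± 1.04 FPKM in IRDC, against 0.597 ± 0.0947 in control.

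Markers of macrophages changed in both directions beside these results, 11 of 33 tested members of the leukocyte list being higher (33.3%) and 20 lower (60.6%). These shares lie near the 24.6% and 52.0% of all genes. Cd163, the haemoglobin scavenger receptor of macrophages, was at 28.5, 27.1, 28.0 and 26.5 FPKM in IRDC libraries, against 0.752, 1.26, 1.04 and 0.773 FPKM in control libraries (log2 change 3.87, SE 0.073, adjusted p = 7.2e-14). The genes of complement C1q rose together. C1qa was at 18.3 ± 0.634 FPKM in IRDC, against 3.96 ± 0.531 in control, C1qb at 13.0 FPKM in IRDC and 1.58 FPKM in control and C1qc at 10.3 FPKM in IRDC and 1.28 FPKM in control. Lyz2, the lysozyme of myeloid cells, was at 184, 184, 182 and 189 FPKM in IRDC libraries, against 517, 518, 528 and 515 FPKM in control libraries (log2 change -1.49, SE 0.018, adjusted p = 1.1e-15). The macrophage marker Cd68 fell to 69.8 ± 2.22 FPKM in IRDC, against 124 ± 2.72 in control. The activation marker Cd83 fell to 0.576 ± 0.206 FPKM in IRDC, against 5.72 ± 0.325 in control, and Cd80 fell to 0.617 ± 0.0686 FPKM in IRDC, against 2.75 ± 0.245 in control. Arg1, Csf2rb, Alox5, Nlrp3 and Tlr2 are expressed by macrophages too, and the part of these cells in the changes of those genes was not tested.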

How the data were processed

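Messenger RNA of rat bone marrow mesenchymal stem cells was sequenced in 4 IRDC, 3 imDC and 4 control libraries at day 3. The authors deposited FPKM values for 32883 genes, 388 of them without a name, and the alignment was to rn6 per the submitters' processing notes. These notes name STAR 2.7.1a, HTSeq 0.13.5, Cufflinks, SAMtools 1.3.1, cutadapt 1.18 and FastQC 0.11.9, without saying which made the FPKM, and strandedness is not given in the sources used here, so overlapping and antisense genes cannot be told apart. Per the labels, TRIzol was used for RNA, capture beads for mRNA, and an Illumina NovaSeq for sequencing. A name shared by several lines (192 names) was read from its most abundant line.

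Values were taken as log2(FPKM + 1) without further scaling. All 11 libraries entered a single limma fit (3.58.1, R 4.3.3; lmFit, then eBayes with a trend), and the IRDC minus control contrast was adjusted by Benjamini-Hochberg over 12329 genes, with calls at adjusted p under 0.05. FPKM steps gave whole reads for 21487 of 21487 genes above 0 (100%, relative tolerance 1e-08), which served for depth and for voom as an alternative, where 9623 genes were called. Means are given ± SD (n = 4 each), and 1 read on 1 kb was worth 0.0392 to 0.0487 FPKM. Adjusted p-values depend on the spread between these libraries only.

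The members and the 57 gene lists were chosen with earlier results of these data known, so the lists carry counts and medians and no test. Genes were named by rule: the 20 highest and 20 lowest log2 changes that pass, with a symbol, a group mean of 5 FPKM or more and no overlapping libraries, up to 5 passing members of each list in each direction, and key genes of each list, some of which are not reported here. Cd44 and Pdgfrb came from the marker check. Outside the rule, Areg, Blnk, Ca14, Cd8a, Clec4a, Cox4i1, Flt3, Id2, Id3, Igh-6, Plin4, Tlr7 and Trib3 were named after their values were seen. Alternatives were a fit without each library, voom, a test against 2-fold, array weights, no trend, a replicate block, a fit of the 8 libraries alone, quantile normalization, TMM-like scaling, filters of 0 and 5 FPKM, and pseudocounts of 0.1 and 0.5. Promoters came from RefSeq (GRCr8), matched by symbol for 8873 tested genes. Figures used Python 3.11.15 and matplotlib 3.10.9.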

Additional observations from a re-analysis of the deposited data

Results flagged for a closer look

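In 39 of 576 groups of 4 libraries, over the genes named in the text, a single library lay apart from the other 3 by more than the 95% critical value of Dixon's test (6.77%). Chance flags about 1 in 20 such groups. No explanation was weighed.

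The first IRDC library was low for Cox4i2 (158 FPKM) and Sncg (5.70 FPKM). The first IRDC library was high for C1qb (15.1 FPKM) and Ldhb (12.3 FPKM). The second IRDC library was low for Blnk (0.0749 FPKM), Ier3 (249 FPKM), Mybl2 (5.13 FPKM), RT1-A2 (110.0 FPKM) and Tlr7 (5.52 FPKM). The second IRDC library was high for Gbp2 (3.24 FPKM). The third IRDC library was low for Ccl6 (60.6 FPKM), Ogn (0.0925 FPKM) and Snai2 (3.34 FPKM). The fourth IRDC library was low for Ifih1 (2.31 FPKM) and Nqo1 (97.8 FPKM). The fourth IRDC library was high for Fos (3.93 FPKM), Itga6 (0.297 FPKM) and Plau (9.94 FPKM).

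The first control library was low for Dlx6 (3.30 FPKM), Igf2 (11.3 FPKM) and Timp3 (33.4 FPKM). The first control library was high for Igh-6 (7.86 FPKM), Irf8 (2.02 FPKM) and Slc47a1 (0.0965 FPKM). The second control library was low for Col3a1 (1872 FPKM), Ephx1 (147 FPKM), Fosl1 (9.96 FPKM), Nt5e (21.1 FPKM) and Tgfb1 (47.5 FPKM). The third control library was low for Itgbl1 (147 FPKM), Junb (25.9 FPKM), Mgp (145 FPKM), Ndufa4 (92.1 FPKM), Pamr1 (19.97 FPKM) and Timp1 (379 FPKM). The third control library was high for Cilp (13.6 FPKM) and Tlr2 (11.3 FPKM). The fourth control library was low for Hgf (1.32 FPKM) and Soat1 (59.2 FPKM).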

How the results depend on the processing

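The number of genes called stayed within 1.5 times of 9446 under every alternative except the test against a minimum 2-fold change, which called 1435 genes, 588 higher and 847 lower, as its stricter hypothesis implies. Other settings called 7536 (filter of 5 FPKM, with fewer genes tested) to 10793 genes (no filter, with more genes tested). Leaving out each library in turn gave 9233 to 9451 calls, 2944 to 3046 higher and 6227 to 6419 lower, and 1948 to 1990 calls of at least 2-fold. Over the other settings calls of at least 2-fold ranged from 1435 (test against 2-fold) to 2643 (voom), with 2578 at a pseudocount of 0.1. TMM-like scaling gave 4356 higher and 4703 lower, and quantile normalization 4150 and 4845. 3 results reversed: Cxcl12 (0.0869) and Cox4i1 (0.0765) rose with TMM-like scaling, and Thy1 (-0.14) fell with quantile normalization. Of 288 genes named and tested, 234 kept their direction and side of the threshold under all 23 alternatives, and the minimum 2-fold change took the call from 51. Fkbp5, which did not pass, passed under TMM-like scaling, quantile normalization, voom and the replicate block. Id2 passed under TMM-like scaling and quantile normalization, and Areg and Ca14 lost their calls under the last. B2m lost its call under TMM-like scaling, and Tgfb1 under both scalings. Same-numbered IRDC and control libraries deviated from their group means together only weakly (r = 0.038 to 0.090 across genes), so the numbers were not taken as pairs. The deviations of each IRDC library nevertheless correlated best with those of the control library of its own number. The replicate block gave 9448 calls, 3045 higher and 6403 lower, and 1975 of at least 2-fold. Genes under about 1 FPKM rest on few reads, and their changes are understated.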

Other observations

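Several genes that no list above describes changed as much as those it does. Rnd1, a small GTPase that loosens the actin skeleton, was at 160.2, 159, 158 and 159.6 FPKM in IRDC libraries, against 1.05, 1.16, 1.34 and 1.298 FPKM in control libraries (log2 change 6.18, SE 0.039, adjusted p = 3.8e-18). Ephx1, a hydrolase of epoxides, stood at 4.13 ± 0.293 FPKM in IRDC, against 152 ± 3.44 in control. Aox1 (aldehyde oxidase) stood at 1.71 ± 0.194 FPKM in IRDC, against 57.4 ± 0.630 in control. Sema3d, a secreted guidance protein, stood at 3.67 ± 0.410 FPKM in IRDC, against 143 ± 4.54 in control. The membrane protein gene Itm2a stood at 0.353 ± 0.0939 FPKM in IRDC, against 45.1 ± 2.38 in control. For each of these 5 genes the IRDC and control libraries did not overlap, as the rule that named them required.

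The genes that follow lie outside the naming rule and were chosen after their values were seen. Mgp (matrix Gla protein), an inhibitor of calcification, was at 2199, 2221, 2201 and 2219 FPKM in IRDC libraries, against 155, 155, 145 and 155 FPKM in control libraries (log2 change 3.85, SE 0.020, adjusted p = 1.0e-18). F3 (tissue factor), which starts blood coagulation, was at 725, 722, 699 and 704 FPKM in IRDC libraries, against 20.1, 24.0, 21.4 and 23.5 FPKM in control libraries (log2 change 4.94, SE 0.044, adjusted p = 7.0e-17). Both reached high levels in IRDC. The connexin gene Gja5 was at 46.6 ± 1.75 FPKM in IRDC, against 0.324 ± 0.0227 in control. The organic cation exporter gene Slc47a1 was at 23.8 ± 0.933 FPKM in IRDC, against 0.0574 ± 0.0262 in control. Among genes that fell, Gpnmb, a membrane glycoprotein of macrophages and osteoblasts, was at 414 ± 3.93 FPKM in IRDC, against 1109.7 ± 12.7 in control. The matrix protein gene Dpt was at 0.0560 ± 0.0289 FPKM in IRDC, against 9.20 ± 0.384 in control. Cilp, another, was at 0.0373 ± 0.0110 FPKM in IRDC, against 12.9 ± 0.456 in control. The complement gene C7 was at 0.0465 ± 0.0460 FPKM in IRDC, against 9.76 ± 0.673 in control.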
